A study of Mus musculus and Rattus norvegicus with 79 samples.

Results

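The genes followed here mark the endothelium of the liver sinusoids and were read in all mouse liver RNA libraries of the study. They are Kdr, Stab1, Stab2, Lyve1, Clec4g, Pecam1, Cdh5, Oit3, Tek and Eng. These are 10 of the 24786 genes that could be named in the deposited mouse tables. Each is represented by the RefSeq transcript row with the highest summed count over both mouse tables, and all 10 passed the filter on low counts in both. The genes were chosen by measured values, since endothelial markers were lower with food in C57BL/6 livers of these data, so every fed against unfed difference in C57BL/6 mice is a description here, without a test. The study asked how feeding and the glucocorticoid receptor (GR, encoded by Nr3c1) shape gene expression in mouse liver. Mice lived in cycles of 12 h light and 12 h dark and were trained to eat at night. Hours are counted from the start of light as Zeitgeber time (ZT). The first set holds C57BL/6 mice with no virus in their labels. At ZT13, ZT14, ZT18 and ZT22 there is a fed and an unfed group, and at ZT10 an unfed group only, with 3 polyA libraries in each of 9 groups. The second set holds Nr3c1fl/fl mice, in which both copies of Nr3c1 carry sites for the recombinase CRE, taken 10 days after injection of AAV-tbg-CRE or of the control virus AAV-tbg-GFP. Both viruses act behind the hepatocyte promoter tbg, so endothelial cells were not the cells aimed at, and the control mice carry the floxed alleles and a virus as well. For each virus the groups of ZT10 and ZT12 are unfed, those of ZT13, ZT14, ZT18 and ZT22 fed, with 3 libraries depleted of ribosomal RNA in each of 12 groups. Age and sex of the mice are not given in the labels.

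Liver sinusoidal endothelial cells line the smallest vessels of the liver as a thin, porous wall without an organised basement membrane. They clear waste molecules, hyaluronan and denatured proteins from portal blood, and they exchange growth signals with the hepatocytes behind them. The 10 genes fall into 4 roles. Stab1 (chr14:31139017-31168651) and Stab2 (chr10:86841194-87008038) encode the scavenger receptors stabilin 1 and stabilin 2, and stabilin 2 takes up hyaluronan. Lyve1 (chr7:110850607-110862953) encodes another hyaluronan receptor, and Clec4g (chr8:3707066-3720695) a C-type lectin of sinusoidal cells. Kdr (chr5:75932827-75979072) encodes the main VEGF receptor of endothelial cells, Tek (chr4:94739086-94874976) the angiopoietin receptor Tie2, and Eng (chr2:32646595-32682669) endoglin, a coreceptor of the BMP9 pathway. Pecam1 (chr11:106654213-106715281) and Cdh5 (chr8:104101613-104144504) encode the junction proteins CD31 and VE-cadherin, which all blood vessel endothelium shares. Oit3 (chr10:59422960-59441779) encodes a protein with a zona pellucida domain and serves as a sinusoidal marker. Positions are gene intervals from RefSeq on GRCm38.p6, the assembly also called mm10.

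RefSeq promoter windows of that assembly, 250 bases before to 50 after the start of a gene, were at hand for 6 of the 10 genes (Kdr, Stab1, Stab2, Clec4g, Tek and Eng). The start is that of the promoter table, which equals the first base of the gene interval given above for Eng and lies inside it by 10 (Stab1), 44 (Clec4g), 96 (Stab2), 203 (Tek) and 617 bases (Kdr). They were searched on both strands for core letters of factors known from endothelial genes. The letters AGGAAG stand for the ETS family. A core of the zinc finger factors that include Gata4 was spelled AGATAA in the search. For the Sox factors the letters ACAATG were used. The forkhead core was TGTTTAC, and the GR core was ACANNNTGT. AGGAAG was found in 4 of the 6 windows, against 35.4% of 32851 windows of the same length. The 4 windows that hold it are shown because endothelial promoters are known for ETS sites, and capitals mark AGGAAG or its reverse complement.
Stab1 (chr14:31168592-31168891, - strand): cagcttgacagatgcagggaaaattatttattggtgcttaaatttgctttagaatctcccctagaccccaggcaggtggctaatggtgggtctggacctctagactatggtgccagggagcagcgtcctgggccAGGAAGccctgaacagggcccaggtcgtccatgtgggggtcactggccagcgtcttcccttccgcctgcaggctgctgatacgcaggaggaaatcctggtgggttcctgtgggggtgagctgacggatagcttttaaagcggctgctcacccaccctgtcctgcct
Stab2 (chr10:87007893-87008192, - strand): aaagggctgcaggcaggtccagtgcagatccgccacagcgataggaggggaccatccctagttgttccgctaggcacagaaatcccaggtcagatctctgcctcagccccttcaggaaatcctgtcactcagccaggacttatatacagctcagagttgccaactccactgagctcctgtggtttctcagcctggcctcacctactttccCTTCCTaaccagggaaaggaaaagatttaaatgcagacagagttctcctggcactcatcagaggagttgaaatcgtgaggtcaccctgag
Clec4g (chr8:3720602-3720901, - strand): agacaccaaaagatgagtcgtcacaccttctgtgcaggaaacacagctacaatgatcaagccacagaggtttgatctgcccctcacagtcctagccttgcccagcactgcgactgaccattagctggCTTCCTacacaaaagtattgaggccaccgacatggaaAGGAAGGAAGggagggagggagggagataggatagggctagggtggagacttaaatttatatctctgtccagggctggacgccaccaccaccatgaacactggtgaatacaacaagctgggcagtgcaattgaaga
Eng (chr2:32646345-32646644, + strand): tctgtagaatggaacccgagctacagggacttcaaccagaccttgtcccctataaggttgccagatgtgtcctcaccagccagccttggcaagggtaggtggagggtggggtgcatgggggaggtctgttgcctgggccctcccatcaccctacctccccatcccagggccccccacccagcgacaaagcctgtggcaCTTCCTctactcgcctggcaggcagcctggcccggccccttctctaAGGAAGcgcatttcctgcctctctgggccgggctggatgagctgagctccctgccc
Clec4g held 3 matches, of which a pair overlap, Eng 2, and Stab1 and Stab2 1 each. AGATAA was found in the window of Tek (11.2% of all windows) and ACAATG in that of Clec4g (12.6%). TGTTTAC (3.65% of all windows) and ACANNNTGT (6.85%) were in none of the 6. These are matches of letters in a window and were not tested as binding sites.

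Total counts ran over 23.9 to 91.8 M per library in C57BL/6 livers (median 43.6 M) and over 34.6 to 78.8 M in Nr3c1fl/fl livers (median 53.4 M). Levels are in CPM, counts scaled to the TMM-adjusted total of tested genes. They are not per length, so they are compared between libraries and never between genes, and the polyA and ribosome-depleted sets are not compared in level. Nr3c1 itself averaged 135 CPM with CRE, against 211 CPM with GFP, over the 6 times, and it fell by 0.64 ± 0.06 (log2 fold change ± SE, edgeR quasi-likelihood test, adjusted p = 1.66e-09, 18 libraries each). Row NR_046233, of ribosomal RNA, matched no gene name. It held 2.23% to 28.5% of the counts of Nr3c1fl/fl libraries and exceeded 20% in 6 of them. Those 6 libraries are all 3 of GFP ZT10, 2 of GFP ZT12 and 1 of CRE ZT10, so that its share goes with the unfed GFP group. All 10 endothelial markers were detected in every group, in whole liver RNA. In such bulk RNA fewer endothelial cells and less RNA per cell cannot be told apart.

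In C57BL/6 livers all 10 genes were lower on average in fed than in unfed mice of the same hour. The mean log2 fold changes over ZT13, ZT14, ZT18 and ZT22 ran from -0.75 (Lyve1) to -0.08 (Tek), with a median of -0.24, against a median of 0.01 and 48.7% negative values over all 14741 genes tested. That of Tek was -0.02 without replicate 3 of unfed ZT14. The count of genes whose groups stood apart varied with the hour. None of the 10 had fed libraries all below the unfed ones at ZT13 (9.25% of all genes did), 4 had at ZT14 (14.9% of all genes), 10 at ZT18 (20.2%) and 6 at ZT22 (16.3%). The choice of the genes used this contrast, so nothing is read from these counts. The summed level of the 10 genes was 336 to 365 CPM in fed and 431 to 448 CPM in unfed livers at ZT22, and 270.1 to 289 CPM in fed and 378 to 412 CPM in unfed livers at ZT18.

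**Figure D1:**
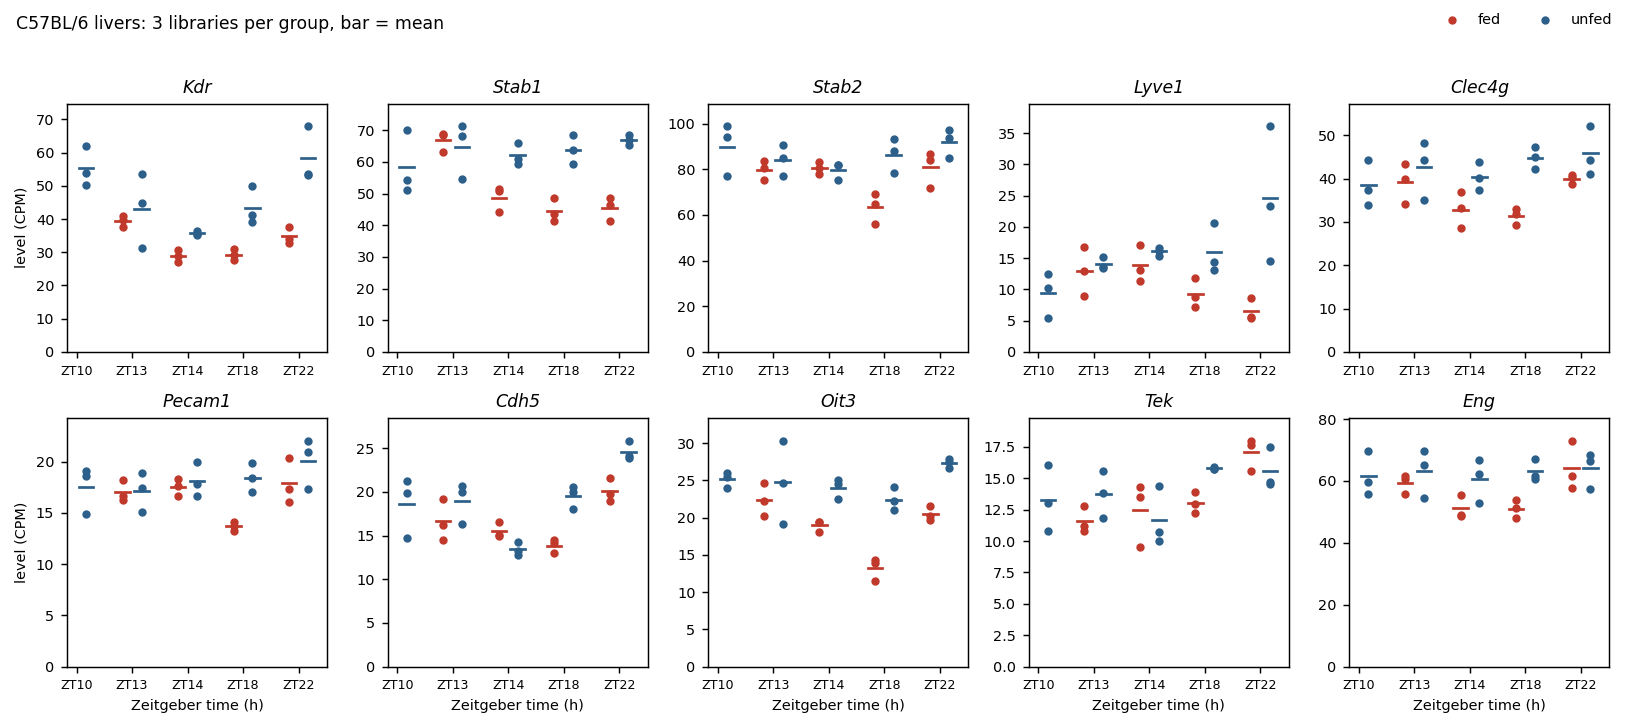
Level in CPM of each of the 10 genes in every C57BL/6 library by Zeitgeber time, fed in red left of unfed in blue, with bars at the group means of 3 libraries. At ZT18 every fed library lies below every unfed one in all 10 panels, while at ZT13 the groups overlap in all 10.

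Among the scavenger receptors, Lyve1 differed most. At ZT22 it stood at 5.35, 5.65 and 8.62 CPM in fed livers, against 14.5, 23.3 and 36.1 CPM in unfed livers. The groups did not overlap, and the log2 fold change of -1.91 ± 0.30 was lower than that of any of the other 9 genes at this hour. At ZT18 Lyve1 was at 7.13, 8.72 and 11.8 CPM in fed and at 13.1, 14.3 and 20.6 CPM in unfed livers (-0.79 ± 0.29). At ZT13 and ZT14 its fed and unfed libraries overlapped, at -0.12 ± 0.29 and -0.19 ± 0.29.

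Stab1 was lower in fed livers from ZT14 on. At ZT14 it was at 44.1, 50.7 and 51.3 CPM in fed and at 59.3, 60.9 and 66.0 CPM in unfed livers (-0.35 ± 0.11). At ZT22 it was at 41.3, 46.4 and 48.5 CPM in fed and at 65.4, 66.8 and 68.6 CPM in unfed livers (-0.56 ± 0.11). The groups were apart at both hours and at ZT18 (-0.52 ± 0.11). Stab2, the hyaluronan scavenger, was apart at ZT18 only, at 56.1, 64.6 and 69.4 CPM in fed and 78.4, 87.8 and 93.0 CPM in unfed livers (-0.45 ± 0.10), and lay at 0.02 ± 0.10 at ZT14. Clec4g was at -0.30 ± 0.12, -0.52 ± 0.12 and -0.20 ± 0.12 at ZT14, ZT18 and ZT22, with no overlap between fed and unfed libraries at any of these hours. Thus 3 of the 4 scavenger and lectin genes stood apart at both ZT18 and ZT22, and Stab2 did not.

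Of the growth factor receptors, Kdr alone had fed libraries all below the unfed ones at ZT22. It stood at 32.7, 34.1 and 37.6 CPM in fed livers, against 53.4, 53.4 and 67.9 CPM in unfed livers at ZT22 (-0.74 ± 0.14). It was also apart at ZT14 (-0.31 ± 0.14) and ZT18 (-0.57 ± 0.14). Tek was at 15.6, 17.7 and 17.98 CPM in fed and at 14.5, 14.7 and 17.5 CPM in unfed livers at ZT22, so the groups overlapped (0.13 ± 0.15). Eng was at 57.7, 61.5 and 73.0 CPM in fed and at 57.4, 66.4 and 68.5 CPM in unfed livers at ZT22, with equal means (0.00 ± 0.11). At ZT18 all 3 receptor genes had every fed library below every unfed one, Tek at -0.28 ± 0.15 and Eng at -0.31 ± 0.11.

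The junction genes and Oit3 differed in the hours. Pecam1 was apart at ZT18 only, at 13.3, 13.8 and 14.1 CPM in fed and 17.1, 18.4 and 19.9 CPM in unfed livers (-0.43 ± 0.12). Cdh5 was at 14.9, 15.1 and 16.6 CPM in fed and at 12.7, 13.3 and 14.2 CPM in unfed livers at ZT14, so here every fed library lay above every unfed one (0.21 ± 0.13). At ZT18 the order was turned round, with 13.01, 14.1 and 14.5 CPM in fed and 18.01, 19.96 and 20.6 CPM in unfed livers (-0.49 ± 0.12). Of the 10 genes Cdh5 alone had fed libraries all above the unfed ones at ZT14, against 12.8% of all genes. Oit3 was at 11.5, 13.96 and 14.3 CPM in fed and at 21.0, 22.2 and 24.1 CPM in unfed livers at ZT18 (-0.76 ± 0.12), and its groups were also apart at ZT14 and ZT22 (-0.35 ± 0.12 and -0.42 ± 0.12).

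**Figure D2:**
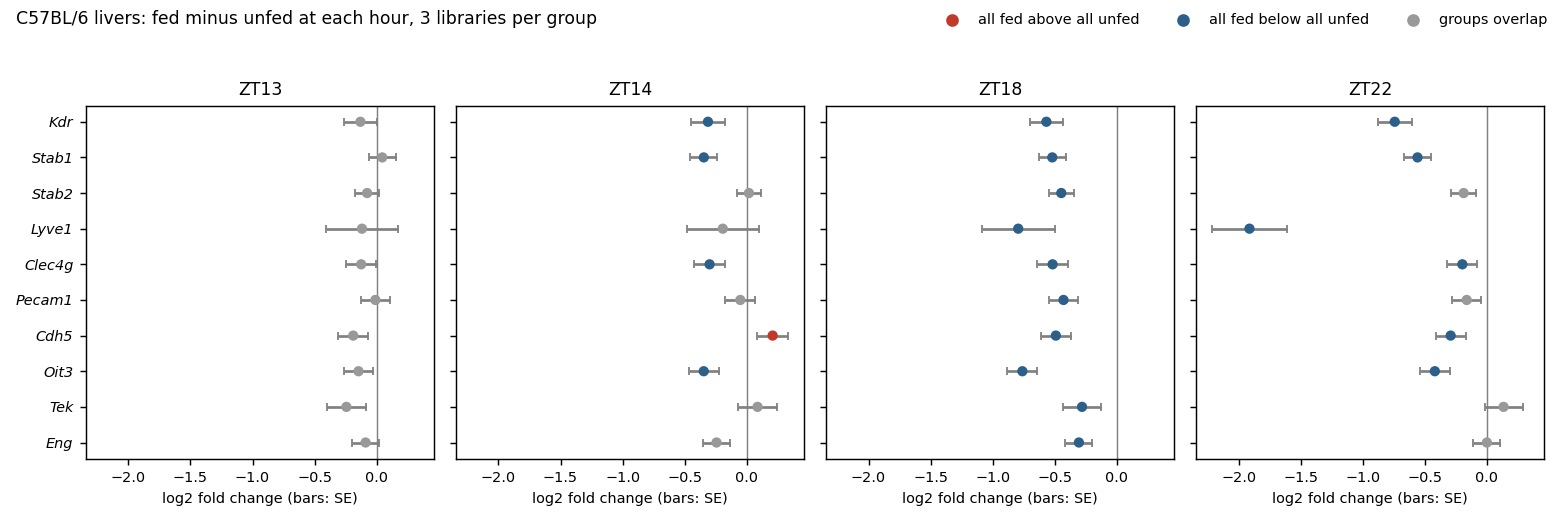
Log2 fold change of each gene, fed minus unfed C57BL/6 livers, in 1 panel per hour, with bars of 1 SE. Blue points mark genes with all 3 fed libraries below all 3 unfed ones (0, 4, 10 and 6 genes at ZT13, ZT14, ZT18 and ZT22), red the opposite (Cdh5 at ZT14) and grey an overlap.

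The levels of the unfed mice also varied along the night. Against unfed ZT10 livers, unfed ZT22 livers were higher for all 10 genes, by 0.03 (Stab2) to 1.38 ± 0.29 (Lyve1) on the log2 scale, although the values of Kdr, Stab2 and Eng turned negative on leaving out single libraries. Lyve1 had 14.5 to 36.1 CPM in unfed livers at ZT22 and 5.50 to 12.4 CPM at ZT10, and Cdh5 23.8 to 25.9 CPM at ZT22 and 14.7 to 21.2 CPM at ZT10. Kdr was lower in unfed livers early in the night than before it, at 35.3, 35.6 and 36.5 CPM in unfed livers at ZT14 and 50.4, 53.8 and 62.1 CPM at ZT10 (-0.63 ± 0.14). Cdh5 was likewise lower in unfed livers at ZT14 than at ZT10 (-0.47 ± 0.13). Fed ZT18 livers were below unfed ZT10 livers in all 10 genes (median -0.37), and 8 of them did not overlap, against 23.4% of all genes. The 2 with overlap, Lyve1 and Tek, turned positive on leaving out single libraries. These comparisons share the ZT10 libraries and the hours above, and were not tested.

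Other endothelial genes were set beside the 10 from lists chosen with earlier results of these data known. Of 19 other sinusoidal genes measured, 16 had negative mean fold changes with food in C57BL/6 livers (median -0.32), and 3 had positive ones, Rspo3 at 0.07, Gata4 at 0.29 and Wnt9b at 0.90. Of 28 other endothelial genes 19 were negative (median -0.14), among them Adgrf5 at -0.52, while S1pr1, a receptor for sphingosine 1-phosphate, was at 0.76. The 19 measured ligands and partners of the 10 genes had a median of -0.04. Markers of other liver cells had medians of -0.06 (11 Kupffer genes), 0.04 (11 stellate genes), -0.09 (9 hepatocyte genes), 0.28 (5 bile duct genes), -0.19 (3 lymphoid genes), 0.73 (5 red blood cell genes) and 0.03 (5 genes of portal or large vessel endothelium). By hour the Kupffer markers were at a median of 0.48 at ZT14, where 11 of 11 were positive, and at -0.38 at ZT22, where 11 of 11 were negative. Their summed level was 195.5 to 238 CPM in fed and 221 to 357 CPM in unfed livers at ZT22, and that of the stellate markers 389.8 to 408 CPM in fed and 210.0 to 376 CPM in unfed livers. At ZT18 all 10 endothelial genes were apart, and the other lists were read there as summed levels. Other sinusoidal genes did not overlap, at 1147 to 1243 CPM in fed and 1387 to 1684 CPM in unfed livers. Nor did other endothelial genes, at 314 to 334 CPM in fed and 371 to 411 CPM in unfed livers. Kupffer markers overlapped, at 203 to 222 CPM in fed and 194 to 264 CPM in unfed livers. Stellate markers overlapped as well, at 324 to 417 CPM in fed and 377 to 400.3 CPM in unfed livers. The summed level of the large vessel list did not overlap there, at 1076 to 1195 CPM in fed and 1297 to 1305 CPM in unfed livers, and 1054 to 1172 CPM in fed and 1274 to 1284.5 CPM in unfed livers of it were Clu, which hepatocytes also express. Of the 5 red blood cell genes, 4 had fed libraries all above the unfed ones at ZT18, against 19.7% of all genes. Their summed level overlapped there, at 64.6 to 73.7 CPM in fed and 48.6 to 70.0 CPM in unfed livers. The part of these other cells in the values of the 10 genes was not tested.

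The comparison of viruses asks whether CRE aimed at hepatocytes, with the partial fall of Nr3c1 given above, goes with a change of the endothelial genes. How much GR the hepatocytes kept cannot be read from whole liver RNA. None of the 10 was called as changed in CRE against GFP livers over the 6 times. The log2 fold changes ran from -0.06 ± 0.05 (Tek) to 0.22 ± 0.15 (Lyve1), with adjusted p from 0.381 to 0.912 in edgeR's quasi-likelihood test over 15709 genes, of which 14.5% were called (7.77% higher and 6.71% lower). At an unadjusted p under 0.05 the count was 0 as well, and DESeq2 called 0. For 8 genes other than Lyve1 and Tek the 95% intervals lay within -0.10 to 0.16, so that larger mean differences lie outside them. The interval of Lyve1 was wider, at -0.09 to 0.53. Stab2, for example, averaged 230.2 CPM in CRE livers, against 231 CPM in GFP livers, Eng 84.6 CPM against 83.9 CPM in GFP livers, and Kdr 78.5 CPM against 77.3 CPM in GFP livers.

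**Figure D3:**
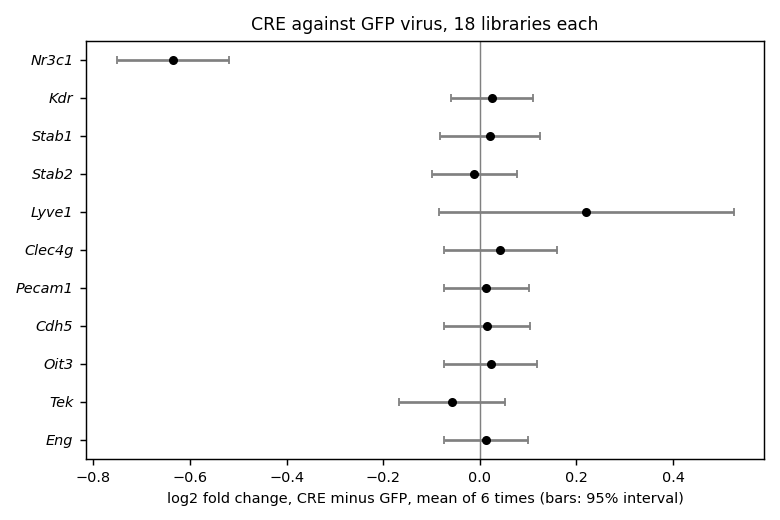
Log2 fold change, CRE minus GFP livers, averaged over 6 times with 18 libraries each, for Nr3c1 and the 10 endothelial genes, with bars of the 95% interval. Nr3c1 lies at -0.64 with its interval below 0, and every interval of the 10 endothelial genes includes 0.

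At single times none of the 10 was called either, with the smallest adjusted p at 0.233 (Pecam1 at ZT10) and 0.249 (Clec4g at ZT13, 0.30 ± 0.14) in edgeR. Over all genes 0.707%, 3.64%, 5.09%, 1.56%, 0.102% and 0.146% were called at ZT10, ZT12, ZT13, ZT14, ZT18 and ZT22. At an unadjusted p under 0.05, 1 gene stood at each of ZT10, ZT12, ZT13, ZT14 and ZT22 and 0 at ZT18, and DESeq2 called 0 at each time. Pecam1 was at 21.0, 24.7 and 25.03 CPM with CRE and at 17.4, 18.6 and 20.7 CPM with GFP at ZT10 (0.31 ± 0.11), and at 21.2, 21.6 and 27.5 CPM with CRE and 25.9, 28.8 and 30.2 CPM with GFP at ZT22 (-0.27 ± 0.10). CRE libraries were thus all above the GFP ones at ZT10, and at ZT22 they were lower on average with overlap. Stab2 was at 168, 195 and 203 CPM with CRE and at 216, 219.7 and 236 CPM with GFP at ZT12 (-0.25 ± 0.10), again without overlap. Lyve1 had CRE libraries all above the GFP ones at ZT10 (0.53 ± 0.39) and ZT22 (0.58 ± 0.37), with adjusted p of 0.682 and 0.601. Kdr at ZT12 and Cdh5 at ZT14 had CRE libraries all below the GFP ones. CRE libraries all above the GFP ones were seen for 8.06% of all genes at ZT10 and 6.68% at ZT22. All below were 11.7% at ZT12 and 9.31% at ZT14. Row NR_046233 held 23.8% to 28.2% of counts with GFP and 8% to 28.55% with CRE at ZT10. At ZT12 it held 4.52% to 24.5% with GFP and 3.62% to 7.38% with CRE. Its part in these separations was not tested.

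**Figure D4:**
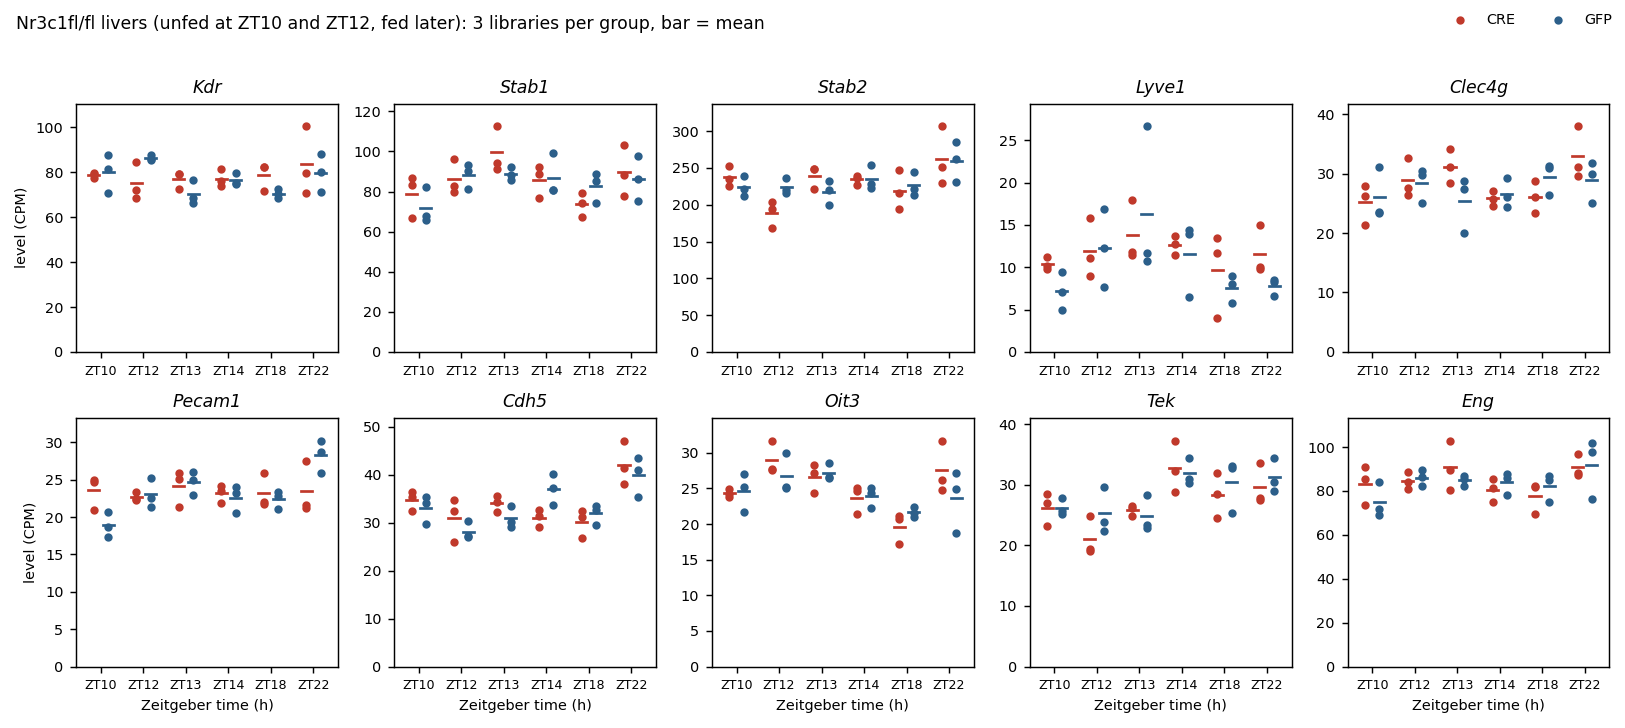
Level in CPM of each of the 10 genes in every Nr3c1fl/fl library by Zeitgeber time, CRE in red left of GFP in blue, with bars at the group means of 3 libraries; the hours ZT10 and ZT12 are unfed and the later ones fed. CRE and GFP libraries overlap at most hours, and Cdh5 has its highest group means at ZT22 with both viruses.

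Food in the Nr3c1fl/fl mice came with the night, so fed hours (ZT13 to ZT22) and unfed hours (ZT10 and ZT12) cannot be told apart from time. Of the 10 genes, all lower with food in C57BL/6 livers, 2 were lower on average at the fed hours in GFP livers and 1 in CRE livers. In GFP livers Pecam1 rose by 0.23 ± 0.07 (adjusted p = 0.00945) and Cdh5 by 0.19 ± 0.07 (adjusted p = 0.0275), Kdr fell by 0.16 ± 0.06 (adjusted p = 0.0453), and 7 were not called, by edgeR over 12 fed and 6 unfed libraries. Over all genes 16.1% were called higher and 15.4% lower. The median of the 10 was 0.10, against 0.02 over all genes, with 8 of 10 positive. Pecam1 averaged 24.5 CPM in fed and 21.0 CPM in unfed GFP livers, Cdh5 34.9 CPM in fed and 30.6 CPM in unfed, and Kdr 74.3 CPM in fed and 83.2 CPM in unfed GFP livers. The call of Kdr was lost without the filter on low counts (-0.15, adjusted p = 0.0906 in edgeR). It was also lost on leaving out any 1 of 13 of the 18 GFP libraries, with adjusted p up to 0.189. The call held without replicate 1 of ZT10, 3 of ZT13, 3 of ZT14, 1 of ZT18 or 1 of ZT22. That of Cdh5 was lost without replicate 1 of ZT10 (0.16) or replicate 1 or 3 of ZT12 (0.19 and 0.18), and that of Pecam1 held in all 18. Without the libraries over 20% in row NR_046233, which leaves 1 unfed GFP library, none of the 3 calls held, at 0.21 (Pecam1), 0.38 (Cdh5) and -0.23 (Kdr), with adjusted p of 0.462, 0.135 and 0.357.

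In CRE livers Tek rose by 0.30 ± 0.08 (adjusted p = 0.00485) and Stab2 by 0.17 ± 0.06 (adjusted p = 0.0448), and none fell, while over all genes 16.2% were called higher and 14.9% lower by edgeR. Tek, the angiopoietin receptor, averaged 29.1 CPM in fed and 23.7 CPM in unfed CRE livers, and 29.6 CPM in fed and 25.8 CPM in unfed GFP livers (0.20 ± 0.08, adjusted p = 0.0707 in GFP). Its call in CRE livers held on leaving out any 1 of the 18 libraries, with adjusted p up to 0.0246, and without the library over 20% in row NR_046233. That of Stab2 was lost on leaving out any 1 of 11 of the 18 libraries (0.13 to 0.18, adjusted p up to 0.173), and it held without replicate 2 of ZT10, 3 of ZT12, 3 of ZT13, 3 of ZT14, 3 of ZT18, or 2 or 3 of ZT22. It was also lost with the replicate number as a block (0.17, adjusted p = 0.0510). Lyve1, the gene with the largest value in C57BL/6 livers, was at 0.14 ± 0.23 in GFP and 0.09 ± 0.22 in CRE livers (adjusted p = 0.694 and 0.809). A difference between the viruses in the change with the fed hours was called for none of the 10 (CRE minus GFP -0.20 to 0.20, adjusted p from 0.449). At an unadjusted p under 0.05 the difference stood for Kdr and Pecam1, DESeq2 called 0, and edgeR called 0.121% of all genes. The difference between these mice and C57BL/6 mice was not tested, since the sets differ in library type, virus and the hour of the unfed groups.

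**Figure D5:**
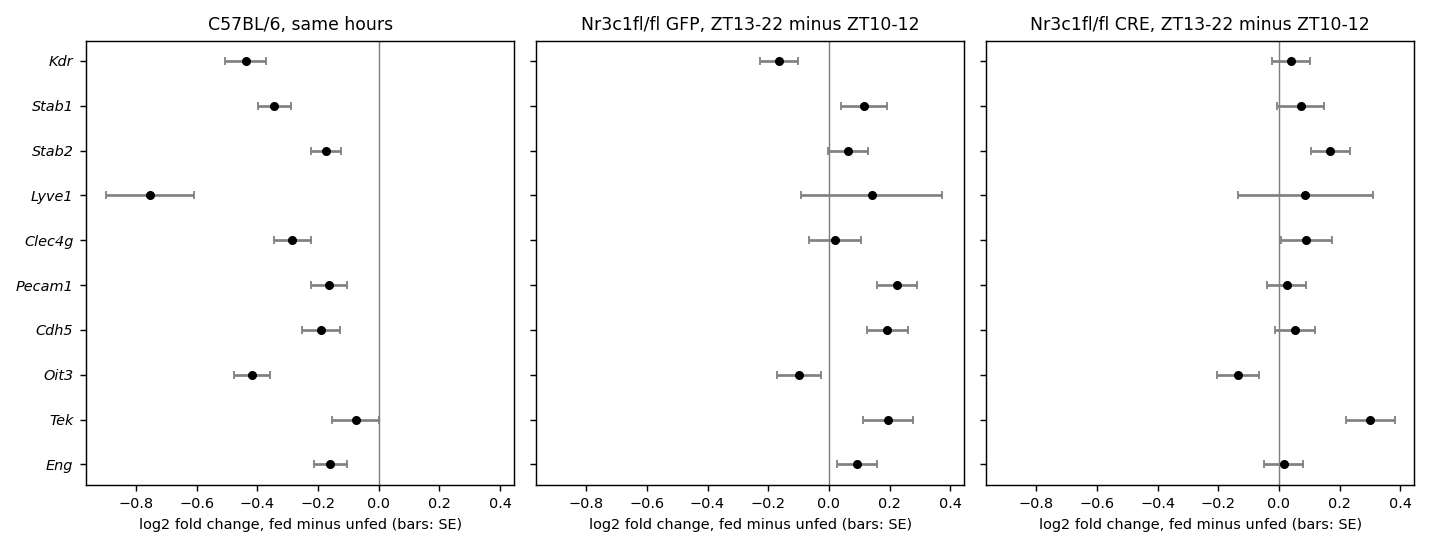
Log2 fold change of each gene, fed minus unfed, in C57BL/6 livers at matched hours (left), in GFP livers (middle) and in CRE livers (right) of Nr3c1fl/fl mice, where fed hours are later than unfed ones, with bars of 1 SE. All 10 points are below 0 in C57BL/6 livers, 2 in GFP livers and 1 in CRE livers.

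The nearest pair of hours, ZT12 and ZT13, was compared as well. Between fed ZT13 and unfed ZT12 livers none of the 10 was called in GFP livers, where Kdr was at 66.5, 68.4 and 76.6 CPM in fed and at 85.5, 86.0 and 87.9 CPM in unfed livers (-0.30 ± 0.10, adjusted p = 0.115 in edgeR). Kdr alone stood there at an unadjusted p under 0.05, DESeq2 called it, and edgeR called 3.14% of all genes. In CRE livers Stab2 rose by 0.34 ± 0.10 (adjusted p = 0.0346), at 222, 248 and 248 CPM in fed and 168, 195 and 203 CPM in unfed livers, against 6.02% of all genes called higher. That call was lost without replicate 1 or 2 of ZT12 (0.37 and 0.27) or replicate 1 or 2 of ZT13 (0.32 each), with adjusted p up to 0.223.

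Some of the 10 varied among the 6 times in the Nr3c1fl/fl livers. In GFP livers Lyve1, Pecam1, Cdh5 and Tek changed (adjusted p = 0.0316, 0.00201, 0.0029 and 0.0476, edgeR F-test), against 47.4% of all genes. In CRE livers Stab2, Cdh5, Oit3 and Tek changed (adjusted p = 0.0111, 0.00346, 0.00314 and 0.00516), against 41.5%. Cdh5 was highest at ZT22 in CRE livers, at 37.9, 41.3 and 47.0 CPM, and in GFP livers, at 35.4, 41.0 and 43.4 CPM. Oit3 was lowest at ZT18 with either virus, at 17.2, 20.7 and 21.1 CPM with CRE and 21.0, 21.6 and 22.3 CPM with GFP. Pecam1 in GFP livers was lowest at ZT10, at 17.4 to 20.7 CPM, and highest at ZT22, at 25.9 to 30.2 CPM. The ZT10 GFP libraries are those with 23.8% to 28.2% of counts in row NR_046233. Leaving out the libraries over 20% therefore removes ZT10 from the GFP times compared. With that share as a covariate Pecam1 and Cdh5 were called in GFP livers, and Lyve1 and Tek were not. Without the libraries over 20% in that row Cdh5 and Tek were called, and Lyve1 and Pecam1 were not. The calls in GFP livers were again Pecam1 and Cdh5 alone without replicate 1 of ZT13 or replicate 2 of ZT22.

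Ligands and partners of the 10 genes were read beside them. Of 20 measured, 3 rose in CRE against GFP livers and none fell (edgeR, 18 libraries each), where 7.77% of all genes rose and 6.71% fell. These are Vegfa, the ligand of Kdr, at 171 CPM with CRE and 145 CPM with GFP (0.21 ± 0.05, adjusted p = 0.00647), Vegfb (0.29 ± 0.08, adjusted p = 0.00897) and Nrp1, a coreceptor for VEGF, at 364 CPM with CRE and 250.2 CPM with GFP (0.53 ± 0.15, adjusted p = 0.0114). The median of the 20 was 0.01, against -0.01 over all genes. Of 19 other sinusoidal genes 1 fell and none rose, Aass, an enzyme of lysine breakdown that hepatocytes also express, at 275 CPM with CRE and 514 CPM with GFP (-0.81 ± 0.10, adjusted p = 3.24e-07). Of 28 other endothelial genes S1pr1 (0.23 ± 0.06, adjusted p = 0.00895) and Ecscr (0.47 ± 0.15, adjusted p = 0.0262) rose and none fell. Leaving out the libraries over 20% in row NR_046233 removes GFP ZT10, so ZT10 drops out of this comparison for both viruses. Without the 6 libraries over 20% in row NR_046233 the fold changes of Vegfb, Nrp1 and Ecscr were 0.28, 0.53 and 0.36 and missed the threshold (adjusted p = 0.0662, 0.0939 and 0.209), and Ecscr also missed it without replicate 2 of CRE ZT14 (0.42, adjusted p = 0.0524). Of the marker lists of other cells, 0 of 11 Kupffer genes, 1 of 11 stellate genes (lower) 4 of 9 hepatocyte genes (lower), 1 of 5 red blood cell genes (higher) and none of 6 bile duct, 6 lymphoid and 5 large vessel genes were called. The summed level of the red blood cell genes lay higher with CRE without overlap at ZT12 (100.6 to 118 CPM with CRE, 76.0 to 88.1 CPM with GFP), ZT18 (94.1 to 129 CPM with CRE, 60.5 to 93.1 CPM with GFP) and ZT22 (111 to 125 CPM with CRE, 66.4 to 91.1 CPM with GFP). That of the hepatocyte genes lay lower with CRE without overlap at ZT12, ZT13, ZT14 and ZT18, and overlapped at ZT10 and ZT22. At ZT12 it was 59145 to 65382 CPM with CRE and 73045 to 86390 CPM with GFP. The Kupffer and large vessel sums at ZT14 and the stellate sum at ZT18 were also lower with CRE without overlap. The bile duct sum at ZT10 and the lymphoid sum at ZT12 were higher without overlap. The part of these lists was not tested.

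With the fed hours in GFP livers, 2 of the 19 other sinusoidal genes rose and 4 fell, where 16.1% of all genes rose and 15.4% fell. Gata4, a transcription factor of sinusoidal identity, averaged 68.2 CPM in fed and 35.8 CPM in unfed GFP livers (0.92 ± 0.10, adjusted p = 2.80e-08, edgeR), and Gpr182 rose by 0.32 ± 0.09. Bmp2, a signal from sinusoidal cells for iron balance, fell by 0.48 ± 0.09, and F8, the clotting factor, fell by 0.29 ± 0.08. Of 28 other endothelial genes 9 rose and 1 fell, among them S1pr1 (0.99 ± 0.10), Flt1 (0.39 ± 0.07), the factor Sox18 (0.67 ± 0.15) and Fli1 (0.35 ± 0.09). Of the ligands and partners Acvrl1, the receptor that works with endoglin, rose by 0.58 ± 0.13 and Vegfa by 0.23 ± 0.08, and Bmpr2 and Hgf fell by 0.21 ± 0.06 and 0.22 ± 0.08. The medians of the 3 lists were -0.07, 0.23 and -0.01, against 0.02 over all genes. Beside these, 1 of 11 Kupffer genes, 2 of 11 stellate genes and 2 of 6 bile duct genes rose, and 2 stellate, 3 of 9 hepatocyte and 1 of 5 large vessel genes fell, whose part was not tested. Without the libraries over 20% in row NR_046233 Gata4, Bmp2, S1pr1 and Fli1 kept their calls. The other 8 genes named here did not, at 0.26 (Gpr182), -0.37 (F8), 0.43 (Flt1), 0.69 (Sox18), 0.72 (Acvrl1), 0.13 (Vegfa), -0.14 (Bmpr2) and -0.13 (Hgf). Hgf also lost its call on leaving out any 1 of 10 of the 18 libraries, and Vegfa without replicate 2 of ZT10, 2 of ZT12 or 3 of ZT13 (0.20, 0.19 and 0.19).

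The 10 genes varied together to different degrees across libraries. The Pearson correlation of a gene's log2 CPM with the mean of the other 9 ran from 0.28 (Tek) and 0.31 (Lyve1) to 0.86 (Oit3) over the 27 C57BL/6 libraries. Over the 36 Nr3c1fl/fl libraries it ran from 0.03 (Lyve1) and 0.09 (Tek) to 0.72 (Eng). Lyve1 also had the widest spread, its group means differing by up to 3.77-fold in C57BL/6 livers (6.54 CPM fed at ZT22, 24.6 CPM unfed at ZT22), and Eng the narrowest, at 1.26-fold. For 9 of the 10 genes the highest C57BL/6 group was unfed ZT22, and for Tek it was fed ZT22. Libraries of a group share the hour and the food, so these values describe the samples and carry no test.

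Among 12409 other genes with at least 1 CPM on average in both sets, those most like the mean of the 10 were Tinagl1, Gpr182, Ptprb, Pcdh1, Ehd3, Plxnd1, Exoc3l, Tbc1d22a, Aqp1 and Polrmt. They were ranked by the lower of 2 Pearson correlations, over the 27 C57BL/6 and over the 36 Nr3c1fl/fl libraries. Tinagl1 had 0.67 over the C57BL/6 and 0.65 over the Nr3c1fl/fl libraries, and Gpr182, a receptor on the sinusoidal list, 0.59 and 0.66. Ptprb, a phosphatase that acts on Tie2 and VE-cadherin, had 0.75 and 0.57, and Aqp1, a water channel, 0.57 and 0.54. Of the 50 genes most alike, 6 stand on the lists of other sinusoidal or endothelial genes. At most 19 and 28 genes of those lists are among the 12409 ranked.

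GR binding near the genes was described from the authors' peak lists at ZT10, made from whole liver chromatin. Of the 10 genes 5 (Stab1, Stab2, Lyve1, Pecam1 and Eng) lay within 25 kb of one of the 5772 peaks that the authors list as concordant, against 29.5% of 14635 genes tested in both sets. The labels give 1 ChIP library per condition. Samples ZT10_GR and ZT10_input have no time after a virus in their labels. Samples ZT10_GR_WT and ZT10_GR_LGRKO were taken 10 days after a virus. The list called against input belongs to ZT10_input, and that called against CRE chromatin to ZT10_GR_LGRKO. Each of these 5772 peaks is a peak of the list called against CRE chromatin that overlaps one of the list called against input. Peaks inside the gene interval were found for 2, against 14.2% of genes. Stab2 holds 3 of them, at chr10:86878668-86878876, chr10:86923716-86923924 and chr10:86947445-86947653, and Pecam1 holds 1, at chr11:106698564-106698772. The nearest such peak to Lyve1 lies 1.9 kb away at chr7:110848451-110848659. The peaks nearest to Kdr and Cdh5 lie 65.0 kb and 92.2 kb away, and Clec4g, Tek and Oit3 had none within 100 kb. The peak lists hold no height, and which liver cells carry the bound sites was not measured. Distances were taken to whole gene intervals, which span 166845 bases for Stab2 and 61069 bases for Pecam1. The shares over all genes were not matched for gene length.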

How the data were processed

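Liver RNA of 27 C57BL/6 (polyA) and 36 Nr3c1fl/fl (ribosome-depleted) libraries was read from raw counts per RefSeq transcript row that the authors deposited. The submitters' processing notes name STAR, HOMER, DESeq2 and the builds mm10 and rn5 without roles. The sources used here do not give how reads were counted or whether strand was used. Most counts of 1 to 10 were even (75.7% to 85.1% of them per library), so counts need not be independent reads. Of 40458 rows, 40214 matched a gene, and each of 7580 genes with several rows was read from its highest row. Pecam1, Tek and Eng have further rows with equal totals. Unmatched rows, 0.316% to 2.25% of counts in C57BL/6 and 2.45% to 28.7% in Nr3c1fl/fl libraries, stayed out of library sizes. The peak lists give positions only, in another unit without heights, as the authors deposited them, and starts were read as counted from 0. The rat table was not used here.

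An edgeR 4.0.16 quasi-likelihood fit per set (R 4.3.3, TMM scaling, filterByExpr) held all its groups, with Benjamini-Hochberg adjustment over all genes tested and a threshold of 0.05. The SE is the log2 fold change over the root of F. The tests were also tried on counts simulated with the means and spread of the Nr3c1fl/fl libraries. Alternatives were DESeq2 1.42.0, RLE size factors, no filter, a replicate block, the share of row NR_046233 as covariate, leaving out libraries above 20% in that row, only the groups compared, and leaving out each library. Further ones were the sum of the rows of a gene, and leaving out a fed and an unfed C57BL/6 library together. The labels do not say that libraries of a group come from separate mice, so p-values measure the spread between libraries. The lowest chi-square per degree of freedom between 2 libraries of a group was 3.51 over 63 pairs, so none was counted as a duplicate. Named in the text are the 10 genes, up to 4 genes per endothelial or ligand list with the smallest p in a comparison, and the 10 genes most alike. Rspo3, Gata4, Wnt9b, Adgrf5 and S1pr1 in C57BL/6 livers were named after their values were seen. The 10 genes and all lists were chosen with earlier results of these data known.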

Additional observations from a re-analysis of the deposited data

Results flagged for a closer look

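Cdh5, which encodes VE-cadherin, changed sides with the hour in C57BL/6 livers. Its log2 fold change of fed against unfed livers was 0.21 at ZT14, with all 3 fed libraries above all 3 unfed ones, and -0.49 at ZT18 and -0.29 at ZT22, with all fed libraries below. The difference between the hours was not tested. Groups of 3 libraries were too small to look for single outlying libraries.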

How the results depend on the processing

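In C57BL/6 livers the mean over 4 times of each gene kept its sign and stayed within its spread under the alternatives run. The same alternatives were applied, after seeing the data, to the values of single hours. Of 40 values at single hours, 8 changed sign in at least 1 alternative, each of a size up to 0.15, and 4 moved beyond the spread, Kdr and Oit3 at ZT13 (up to 0.062 and 0.036), Tek at ZT14 (up to 0.29) and Lyve1 at ZT22 (-1.53 without unfed replicate 2). Of 80 values against unfed ZT10, 27 changed sign, each of a size up to 0.11, and 17 moved beyond the spread. None of the 10 genes was called between the viruses under any alternative run. In GFP livers the 3 calls with the fed hours became 1 with the share of row NR_046233 as covariate, and 1 to 3 on leaving out a library. Kdr lost its call there without the filter as well (-0.15, adjusted p = 0.0906 in edgeR). Leaving out the libraries over 20% in that row left 1 unfed GFP library, with the values given above. In CRE livers the 2 calls became 1 with RLE size factors, without the filter, with the replicate block, with the covariate and without the library over 20%, and 1 to 2 on leaving out a library. Between ZT12 and ZT13 the count in CRE livers was 0 without the filter, without the library over 20% or with only the 2 groups in the fit, and 0 to 1 on leaving out a library, and in GFP livers it was 1 with DESeq2. Among the 6 times the count in GFP livers was 2 with the covariate (Pecam1 and Cdh5) and 2 to 5 on leaving out a library. Without the libraries over 20% no GFP ZT10 library was left, so that setting compared fewer times. Genes near a concordant GR peak were 2 inside the gene (14.2% of all genes), 3 within 10 kb (21.9%) and 7 within 100 kb (53.9%). Within 25 kb, 8 were near a peak of the list called against input (63.4% of all genes) and 8 of that called against CRE chromatin (72.0%).

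Values that turned sign were never called. They are, in GFP livers with the fed hours, Stab2 (-0.039) and Clec4g (-0.0048) with the covariate and Stab1 (-0.098), Lyve1 (-0.24) and Eng (-0.050) without the libraries over 20%. Between the viruses without those libraries, and so without ZT10 for both viruses, they are Stab1 (-0.016), Pecam1 (-0.025), Oit3 (-0.00059) and Eng (-0.026). On leaving out a library the ranges that cross 0 were -0.021 to 0.10 for Clec4g with the fed hours in GFP livers. In CRE livers they were -0.015 to 0.046 for Pecam1, -0.035 to 0.052 for Eng and -0.0047 to 0.097 for Cdh5, and between ZT12 and ZT13 -0.029 to 0.12 for Kdr and -0.037 to 0.45 for Lyve1. Between the viruses they were -0.032 to 0.0046 for Stab2, -0.0080 to 0.029 for Pecam1 and -0.0048 to 0.031 for Eng. The cause was not tested.

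Same-numbered libraries of different groups had a mean correlation of deviations of 0.0077 over 198 pairs in Nr3c1fl/fl livers (-0.35 to 0.25). In C57BL/6 livers the mean was 0.011 over 108 pairs (-0.24 to 0.21). Values over 0.1 were seen for 37 of the 198 and 12 of the 108 pairs. These means show no pairing by replicate number over all groups and cannot exclude it between some groups. The replicate block left 3 calls in GFP livers with the fed hours and 1 in CRE livers.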
